A study of Mus musculus with 11 samples.

Results

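The genes of cholesterol synthesis and transport were examined in RNA-Seq libraries of mouse dorsal root ganglia (DRGs), where sensory neurons have their cell bodies, each wrapped by satellite glial cells (SGCs). The set had 30 genes of the 36670 in the deposited table, chosen by symbol: 8 of the mevalonate pathway, 12 of the sterol pathway that follows it, 4 of the sterol-sensing machinery and 6 of cholesterol transport and its control. Each symbol matched 1 gene, and all 30 genes passed the filter of a mean FPKM of at least 0.5 that left 15087 genes for testing.

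Cholesterol is built from acetyl-CoA. The mevalonate enzymes make isoprenoid units and farnesyl pyrophosphate, squalene synthase commits these to sterols, and the later enzymes close and trim the rings to cholesterol. When membrane sterol is low, SCAP escorts the transcription factor SREBP2 from the endoplasmic reticulum and SREBP2 turns on these genes, whereas INSIG proteins hold it back. When sterol is plentiful, liver X receptors turn on export pumps. Myelinating Schwann cells are known for a high demand for cholesterol, and neurons are supplied in part by glia.

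The 11 libraries formed 4 groups: 3 of WT control mice, 3 of WT mice 4 weeks after paclitaxel (PTX), 3 of control mice lacking *Gpr37l1* (KO) and 2 of KO mice at 4 weeks after the drug. The drug is a microtubule-binding chemotherapy drug that causes neuropathic pain, and *Gpr37l1* encodes an orphan receptor of SGCs. The KO mice carried the tm1Lex allele in every cell, since it is no conditional allele, and came from a mutant mouse repository and were kept on a C57BL/6 background with littermates. Replicate 3 of each group is labelled female and the others male. The labels give no age, no PTX dose and no number of mice per library, so p-values measure the spread between these libraries.

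Library totals ran from 52735648 to 80348732 estimated counts. *Gpr37l1* was at 14.6 to 35.7 FPKM in the 6 WT libraries and at 0.21 to 1.15 FPKM in the 5 KO libraries, as the labels say. Sensory neuron markers summed to 4147 to 5496 FPKM and satellite glia markers to 1101 to 1541 FPKM, so markers of both cell types were present. In the satellite glia sum *Apoe* alone was at 711 to 1080 FPKM, and this gene is also among the other cholesterol genes below. The library of WT control 1 stood apart. The RNA *CT010467* took 2.97% of its counts against 0.178% to 0.575% elsewhere, and its GC-richest quintile of genes was shifted against the GC-poorest by 0.43 on the log2 scale, against -0.20 to 0.08 in the other libraries.

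The promoters of 4 members are shown first because SREBP2 acts through short DNA elements near the start sites of these genes, and because these 4 carry the contrasts described next. *Hmgcs1* was the highest member, *Mvk* and *Mvd* had the smallest p-values of the set for PTX in WT mice, and *Acat2* held the only other match to the sterol regulatory element (SRE). Sequences are from RefSeq on GRCm38.p6, 250 bases before to 50 bases after the start, 5′ to 3′ on the gene's strand. Capitals mark the SRE core CACCCCAC, the relaxed SRE TCACNCCAC or the CCAAT box, on either strand.
*Hmgcs1*, chr13:119690101-119690400, plus strand: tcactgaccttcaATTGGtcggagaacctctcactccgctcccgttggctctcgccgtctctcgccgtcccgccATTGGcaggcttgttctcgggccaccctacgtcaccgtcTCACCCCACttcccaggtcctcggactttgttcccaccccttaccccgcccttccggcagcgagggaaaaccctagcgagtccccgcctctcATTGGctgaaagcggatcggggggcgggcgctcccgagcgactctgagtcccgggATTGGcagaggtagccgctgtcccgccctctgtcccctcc
*Acat2*, chr17:12960676-12960975, minus strand: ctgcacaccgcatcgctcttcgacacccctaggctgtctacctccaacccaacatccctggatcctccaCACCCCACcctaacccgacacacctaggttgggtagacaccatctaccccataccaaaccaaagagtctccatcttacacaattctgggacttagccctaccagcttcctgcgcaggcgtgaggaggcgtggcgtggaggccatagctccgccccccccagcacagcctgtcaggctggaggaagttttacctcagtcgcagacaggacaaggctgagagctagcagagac
*Mvk*, chr5:114444019-114444318, plus strand: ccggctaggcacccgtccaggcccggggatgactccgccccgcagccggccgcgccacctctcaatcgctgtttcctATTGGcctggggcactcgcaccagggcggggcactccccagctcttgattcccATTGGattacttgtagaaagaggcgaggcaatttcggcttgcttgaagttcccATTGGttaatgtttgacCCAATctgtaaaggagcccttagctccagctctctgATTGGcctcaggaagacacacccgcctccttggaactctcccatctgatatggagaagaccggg
*Mvd*, chr8:122443373-122443672, minus strand: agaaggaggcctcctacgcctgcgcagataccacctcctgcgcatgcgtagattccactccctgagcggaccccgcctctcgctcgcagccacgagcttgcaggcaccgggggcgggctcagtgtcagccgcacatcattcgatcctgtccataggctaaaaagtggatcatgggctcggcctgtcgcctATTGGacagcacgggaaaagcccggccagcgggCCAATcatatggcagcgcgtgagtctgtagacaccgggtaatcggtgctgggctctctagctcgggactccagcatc

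RefSeq windows were matched for 24 of the 30 members, and *Fdps*, *Fdft1*, *Sqle*, *Abcg1*, *Npc1* and *Stard4* had no entry. The SRE core was found in 2 of the 24 members, *Hmgcs1* and *Acat2* (8.33%), against 3.30% of 27025 genes with a window. In *Hmgcs1* the core lay inside a match to the relaxed SRE, which 1 of the 24 members (4.17%) and 1.44% of all genes held. The CCAAT box, the element of the partner factor NF-Y, was held by 20 of the 24 members (83.3%) and by 41.1% of all genes. *Mvk* had 5 matches to it, *Hmgcs1* 4, *Mvd* 2 and *Acat2* 0. The GC box GGGCGG of Sp1 was held by 21 members (87.5%) and 38.2% of all genes, and the E-box CACGTG by 6 members (25%) and 8.09% of all genes. The LXR element (DR4), a direct repeat bound by liver X receptors, was in 0 members and in 4 genes of all. Motifs were searched on both strands and counted separately where they overlap, and a match says only that the letters stand in the window.

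The members were well expressed. In WT controls, 28 of the 30 lay above the median of 4.77 FPKM over all genes tested, and the median member had 84.1% of these genes below it. Mevalonate enzymes were the highest group with a median of 42.3 FPKM, followed by sterol enzymes at 25.0, sensing genes at 21.2 and transport genes at 8.92 FPKM. These FPKM are scaled for transcript length, but the order of members need not be that of counts per length. *Msmo1* had 11542 to 18588 estimated counts and a longest coding transcript of 2044 bases. *Acat2* had 8866 to 16132 counts and 2250 bases. Over the 11 libraries, *Msmo1* nonetheless had a mean of 33.7 FPKM and *Acat2* of 67.7 FPKM. Why FPKM and counts order these genes differently was not tested.

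**Figure D1:**
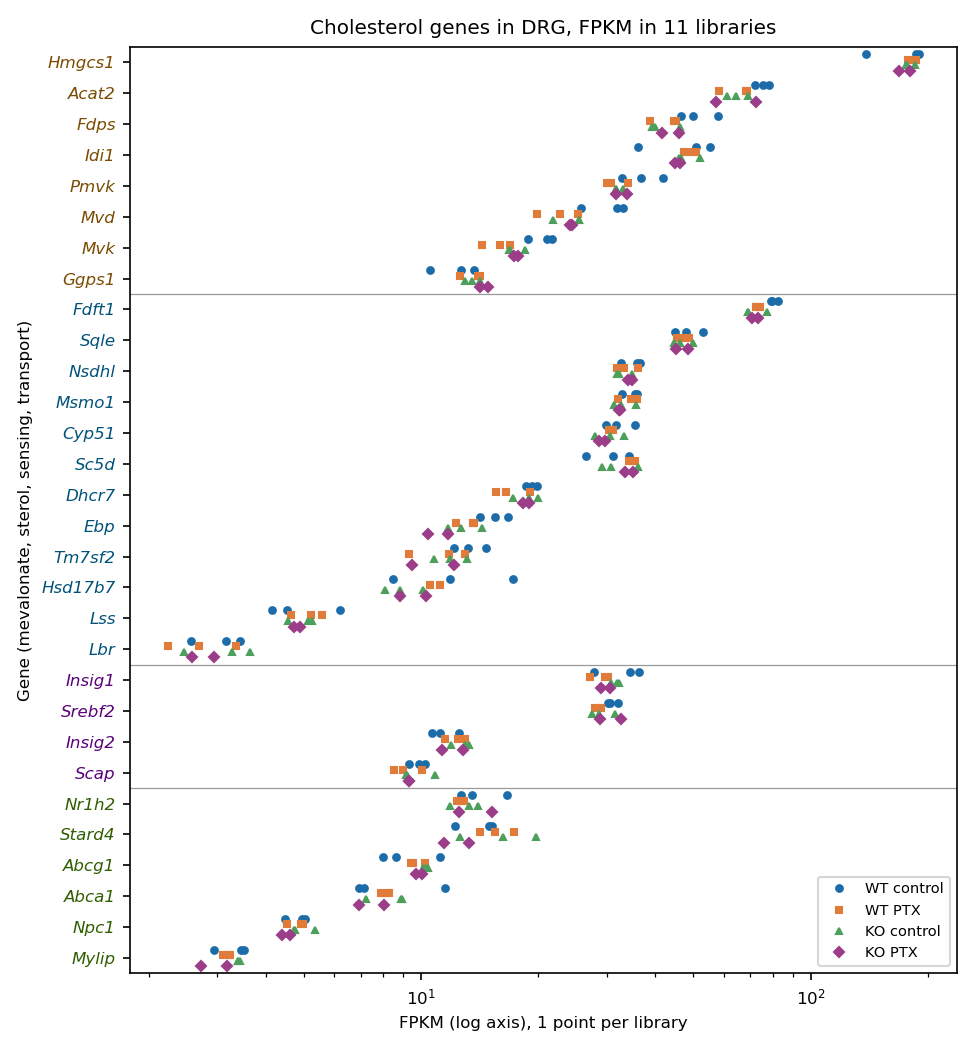
FPKM of the 30 cholesterol genes on a log axis, 1 point for each of the 11 libraries, in the order mevalonate, sterol, sensing and transport. *Hmgcs1* lies at the top and *Lbr* and *Mylip* at the bottom, and for most genes the 4 groups lie over each other.

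*Hmgcs1*, which makes HMG-CoA, was the highest member at 172 ± 28.8 FPKM (SD, n = 3) in WT controls. *Fdft1*, squalene synthase, had 80.4 ± 1.996 FPKM and *Acat2*, the cytosolic thiolase that starts the pathway, 75.2 ± 3.29 FPKM. *Fdps* at 51.4 ± 5.84, *Sqle* at 48.7 ± 4.12 and *Idi1* at 47.4 ± 9.999 FPKM came next and overlapped between libraries. From *Fdps* down, each member overlapped its neighbour in the order except at 5 steps, below *Mvd*, *Dhcr7*, *Insig2*, *Abca1* and *Npc1*. At the low end were *Lss*, lanosterol synthase, at 4.96 ± 1.09 FPKM, *Npc1*, the lysosomal cholesterol exporter, at 4.82 ± 0.301, *Mylip*, which marks the LDL receptor for degradation, at 3.30 ± 0.313, and *Lbr*, a sterol reductase that is also an inner nuclear membrane protein, at 3.05 ± 0.440 FPKM. *Tm7sf2* encodes a reductase of the same step, and at 13.4 ± 1.24 FPKM it stood well above *Lbr*.

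The members varied about as much as other genes of their level. The coefficient of variation over the 11 libraries had a median of 9.03% and ran from 5.16% to 23.9%, against a median of 9.27% for the 9345 genes in the same range of mean FPKM. Each member had at least 537 estimated counts in each library. The highest library was at most 2.13 times the lowest, which was for *Hsd17b7*. WT controls 1 and 2 held the highest value of 8 and 10 of the 30 members, and WT PTX 3 held the lowest of 8. WT control 1 also held the lowest value of 5 members, among them *Hmgcs1*, *Idi1* and *Ggps1*.

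**Figure D2:**
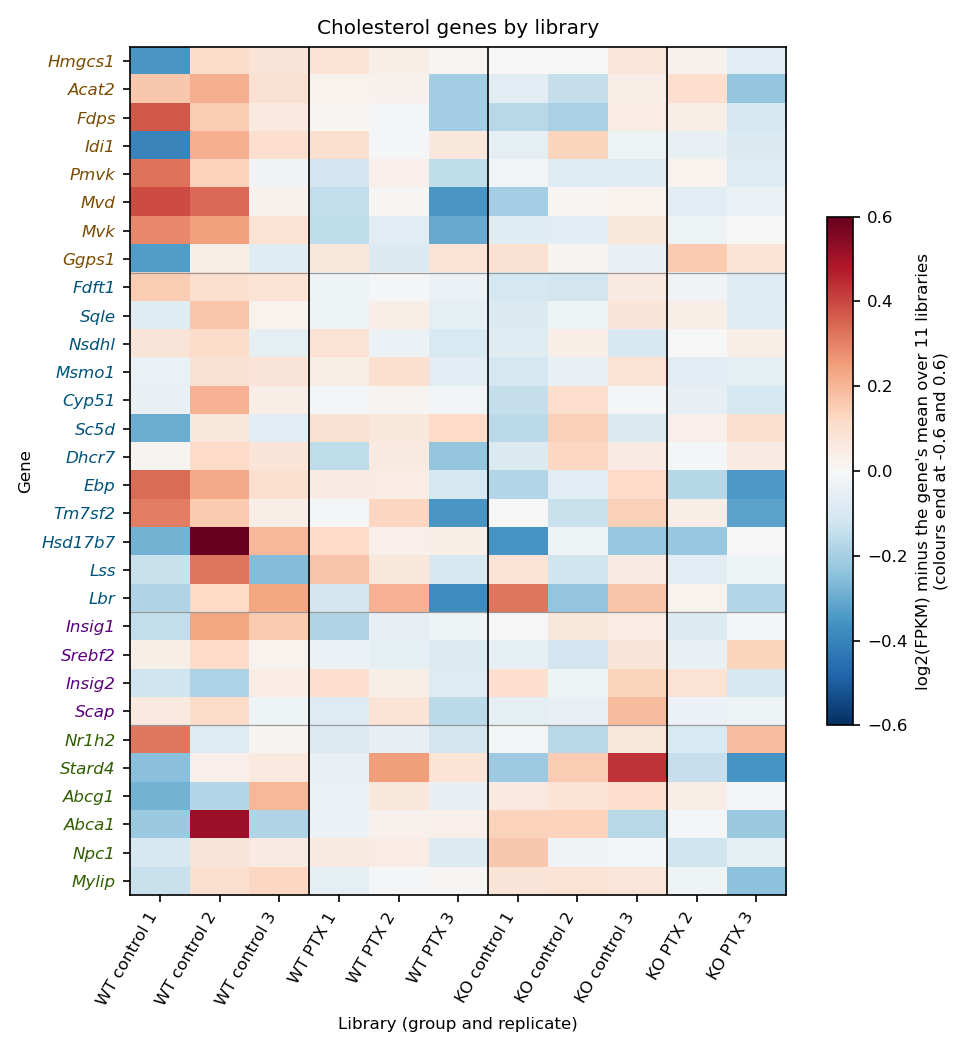
log2(FPKM) of each gene minus its mean over the 11 libraries, genes in rows and libraries in columns, with black lines between groups. In WT control 1, *Fdps*, *Pmvk*, *Mvd* and *Mvk* are high whereas *Hmgcs1*, *Idi1* and *Ggps1* of the same pathway are low.

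The comparison of PTX with control in WT mice asked which members differed 4 weeks after the drug. With edgeR's quasi-likelihood test, 0 of 30 members passed an adjusted p of 0.05, and the lowest adjusted p was 0.203. Over all genes tested 0.00663% passed. DESeq2 called 2 members here and 0 in the other 4 comparisons, and limma on log2(FPKM + 1) called 0 members in all 5. At an unadjusted p under 0.05, 7 members were lower and 0 higher, whereas 6.87% of all genes were lower and 6.59% higher. Of the 7, 5 were mevalonate enzymes and 2 sterol enzymes, and 0 of the 10 sensing and transport genes were among them. The median log2 fold change was -0.09 over the members, with 22 of 30 below 0, and -0.01 over all genes tested. Without WT control 2 the members' median was -0.03.

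*Mvk*, mevalonate kinase (chr5:114444269-114460591, mm10), had the smallest p. It was at 21.7, 21.04 and 18.8 FPKM in WT controls 1 to 3 and at 15.9, 17.0 and 14.4 FPKM in WT PTX mice. The groups did not overlap, and each WT control was above each of the other 8 libraries of the study. The log2 fold change was -0.38 ± 0.08 (SE, edgeR adjusted p = 0.203). With DESeq2, an alternative tool, *Mvk* passed the threshold with a log2 fold change of -0.39 and an adjusted p of 0.00665, over a range of 0.00665 to 0.685 across the alternatives.

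*Mvd*, the decarboxylase that makes isopentenyl pyrophosphate (chr8:122433601-122443422), was at 33.0, 31.9 and 25.7 FPKM in WT controls and at 22.8, 25.3 and 19.8 FPKM in WT PTX mice. The groups did not overlap, although WT control 3 lay only just above WT PTX 2. Its log2 fold change was -0.42 ± 0.11 (SE, edgeR adjusted p = 0.238). By DESeq2 it was -0.42 with an adjusted p of 0.0253, over a range of 0.0253 to 0.685 across the alternatives. DESeq2 called 2.05% of all genes in this comparison, and *Mvk* and *Mvd* were the only members among them.

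The other 5 had smaller differences. *Fdps*, farnesyl pyrophosphate synthase (chr3:89093588-89101959), had 57.9, 49.8 and 46.6 FPKM in WT controls and 45.1, 44.5 and 38.7 FPKM after PTX, with a log2 fold change of -0.27 ± 0.10 (SE). *Pmvk*, phosphomevalonate kinase (chr3:89454541-89469013), had 41.8, 36.7 and 32.8 FPKM against 30.8, 34.1 and 30.03 FPKM, and the groups overlapped (-0.23 ± 0.08). *Acat2* (chr17:12942890-12960747) had 75.3, 78.4 and 71.8 FPKM against 68.4, 68.5 and 58.4 FPKM (-0.21 ± 0.08). Only *Pmvk* of these 3 overlapped between the groups, because its WT control 3 lay below WT PTX 2.

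*Fdft1* (chr14:63145150-63179578) had 82.7, 79.7 and 79.0 FPKM in WT controls and 73.0, 74.1 and 72.6 FPKM in WT PTX mice, a tight pair of groups with a log2 fold change of -0.14 ± 0.06 (SE). *Ebp*, the sterol isomerase (chrX:8185329-8193512), had 16.7, 15.5 and 14.2 FPKM against 13.7, 13.6 and 12.3 FPKM (-0.23 ± 0.10). Neither gene overlapped between the groups. *Fdft1* shares part of its locus with *Ctsb* on the opposite strand. In all, 14 members overlap another gene of the table, 5 of them a gene on the same strand, and whether the counting kept strands apart is not given in the sources used here.

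**Figure D3:**
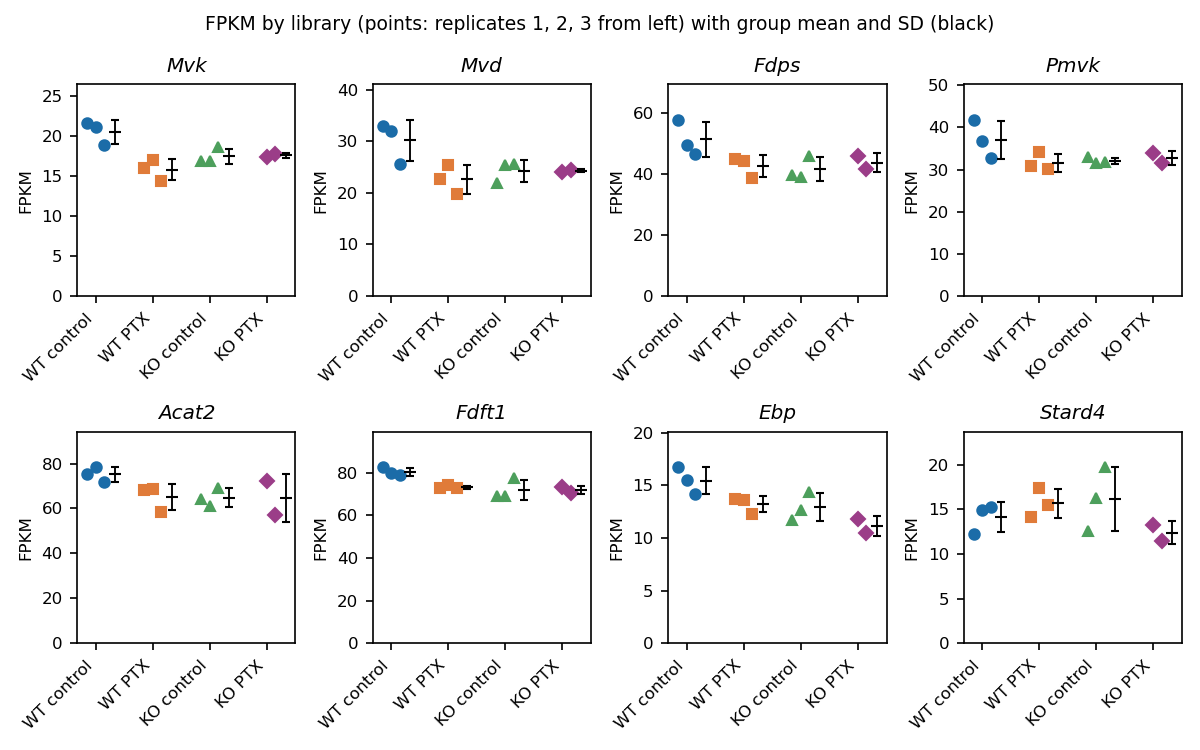
FPKM of 8 members in every library, with the mean and SD of each group in black, on axes that start at 0. For *Mvk* the WT controls lie above all other libraries, and for *Stard4* the KO PTX libraries lie at 13.3 and 11.4 FPKM under the upper 2 KO controls.

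The other 3 mevalonate enzymes had estimates above 0 in the main fit. *Hmgcs1* was at 138, 190 and 186 FPKM in WT controls and at 187, 181 and 178 FPKM in WT PTX mice, with a log2 fold change of 0.08 ± 0.10 (SE) and a 95% interval from -0.14 to 0.31. Its spread came from WT control 1, the lowest of the 11 libraries. *Idi1*, the isomerase that follows *Mvd*, was at 0.05 ± 0.13, and *Ggps1*, which makes the lipid used for protein prenylation, at 0.14 ± 0.10. The signs of *Hmgcs1* and *Idi1* depended on WT control 1. Without it *Hmgcs1* was at -0.05 ± 0.05, *Idi1* at -0.11 ± 0.08 and *Ggps1* at 0.04 ± 0.08.

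Of the 12 sterol enzymes, 10 had an estimate below 0. Beside *Fdft1* and *Ebp*, they lay between -0.24 ± 0.12 (SE) for *Tm7sf2* and 0.18 ± 0.11 for *Sc5d*, the desaturase near the end of the pathway. *Sqle*, squalene epoxidase, was at -0.06 ± 0.07, *Lss* at 0.05 ± 0.13, *Cyp51*, the lanosterol demethylase, at -0.08 ± 0.08, and *Lbr* at -0.15 ± 0.18. The enzymes that remove the C4 methyl groups were at -0.02 ± 0.07 for *Msmo1*, -0.06 ± 0.07 for *Nsdhl* and -0.22 ± 0.21 for *Hsd17b7*. *Dhcr7*, the reductase that ends the pathway, was at -0.18 ± 0.08, just short of an unadjusted p of 0.05. *Sc5d* was at 26.6, 34.2 and 31.2 FPKM in WT controls and 34.8, 34.3 and 35.4 FPKM in WT PTX mice, the 1 member that was higher without overlap between groups. Among all genes tested, 6.81% were higher and 7.37% lower without overlap, and 7 members were lower in that way. The seventh beside the 6 given was *Srebf2*, the gene of SREBP2, with 30.5, 32.1 and 30.2 FPKM against 29.04, 28.7 and 28.1 FPKM (-0.12 ± 0.07).

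The other sensing genes and the transport genes had estimates from -0.18 to 0.15. *Scap* was at -0.10 ± 0.08 (SE), *Insig1*, itself an SREBP2 target, at -0.18 ± 0.09 and *Insig2* at 0.10 ± 0.09. *Nr1h2*, the liver X receptor beta, was at -0.18 ± 0.12, and its target pumps *Abca1* and *Abcg1* at -0.06 ± 0.16 and 0.07 ± 0.10. *Mylip*, another such target, was at -0.05 ± 0.11, and *Npc1* at -0.01 ± 0.08. *Stard4*, a carrier of cholesterol in the cytosol, was at 0.15 ± 0.14. The 95% intervals of all 30 members lay within 2-fold in either direction, and those of 28 within 1.5-fold.

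**Figure D4:**
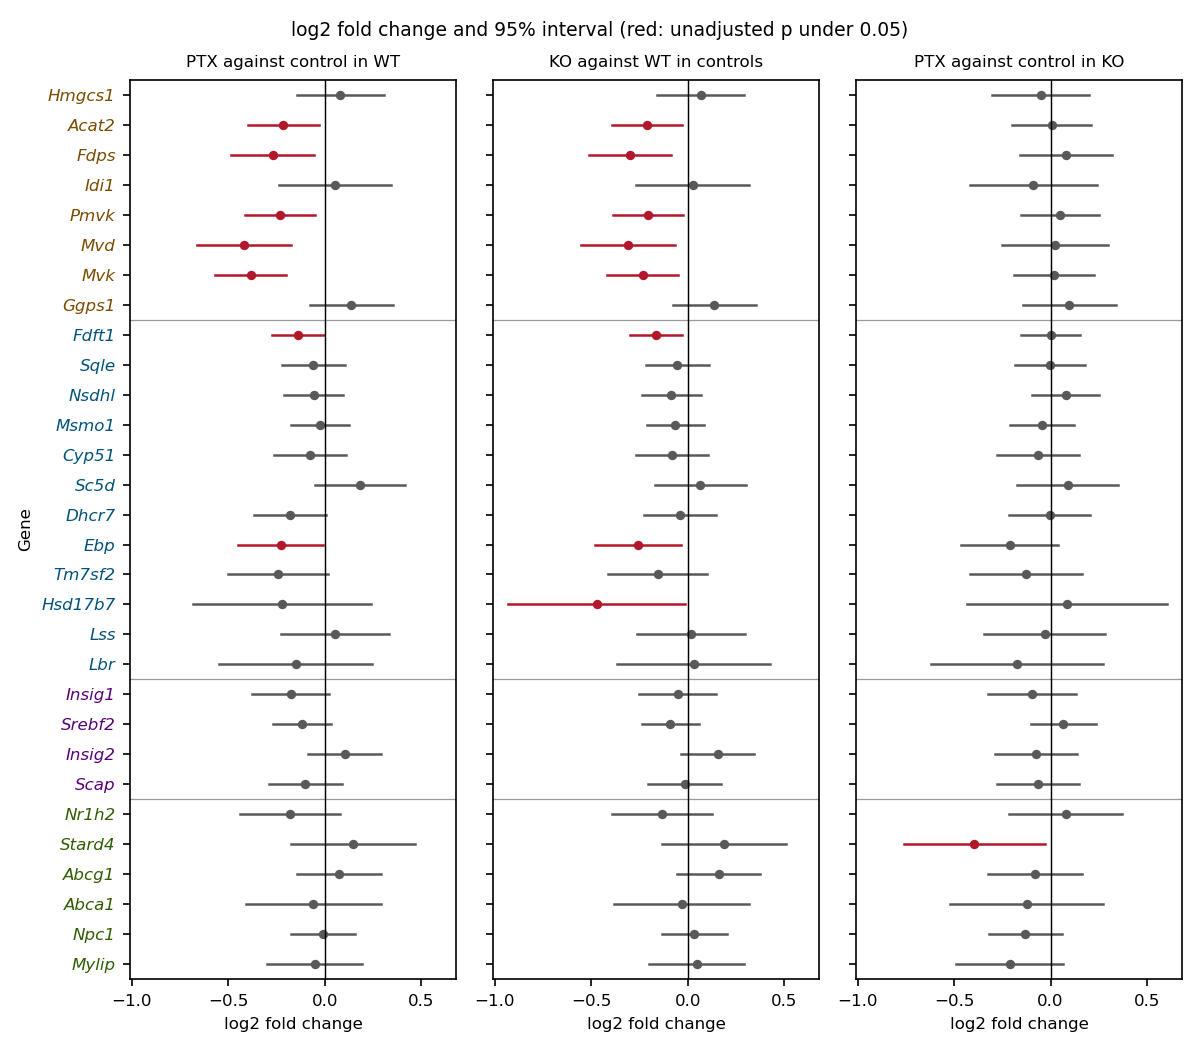
log2 fold change (points) with its 95% interval (lines) for the 30 members in 3 comparisons of the edgeR fit, red where the unadjusted p was under 0.05. All members with red intervals lie below 0, and in KO mice PTX gives 1 of them, *Stard4*.

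By their medians, the members with lower values in WT PTX mice had shorter and more GC-rich transcripts than the rest. The 7 had a median GC content of 54.5% and a median length of 1743 bases, against 47.5% and 3510 bases for the other 23 and 50.1% and 2896 bases for all genes tested. Over all genes tested, the median log2 fold change for PTX in WT mice went from 0.14 in the GC-poorest quintile to -0.14 in the GC-richest quintile, and from -0.11 in the shortest to 0.08 in the longest. When a trend with GC content and length was taken out of each library, an alternative added after the data were seen, 7 members were lower and 0 higher at an unadjusted p under 0.05. These were *Acat2*, *Mvk*, *Mvd*, *Fdps*, *Fdft1*, *Cyp51* and *Insig1*, and 0 passed the adjusted threshold. Of all genes tested, 2030 were at an unadjusted p under 0.05 in the main fit and 1568 with the trend taken out. *Mvk* then had a log2 fold change of -0.23 ± 0.06 (SE), *Mvd* -0.27 ± 0.09, *Fdps* -0.15 ± 0.07 and *Pmvk* -0.08 ± 0.05, whereas *Acat2* stayed at -0.21 ± 0.08 and *Fdft1* at -0.14 ± 0.06. The remaining mevalonate enzymes also fell below 0, *Hmgcs1* at -0.03 ± 0.06, *Idi1* at -0.06 ± 0.10 and *Ggps1* at -0.03 ± 0.06. Without WT control 1, 6 members were lower, *Acat2*, *Mvk*, *Pmvk*, *Mvd*, *Hsd17b7* and *Insig1*. In that fit 1530 of all genes tested were at an unadjusted p under 0.05. *Pmvk* was then at -0.14 ± 0.06, *Fdps* at -0.18 ± 0.09 and *Hsd17b7* at -0.44 ± 0.16. The part of base composition in the fold changes was otherwise not tested.

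**Figure D5:**
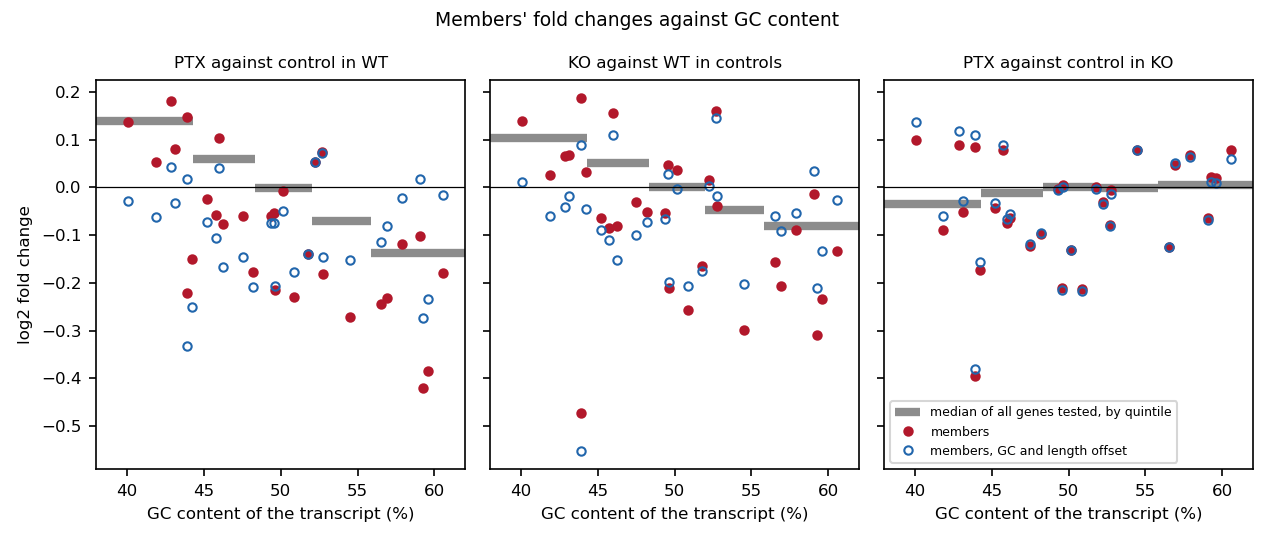
log2 fold change of the 30 members against the GC content of their longest coding transcript, as fitted (filled) and with the GC and length trend taken out (open), in 3 comparisons. Grey bars are medians over all genes tested by quintile of GC content, cut at the edges of the axis, and they slope down in the first 2 comparisons, from 0.14 to -0.14 and from 0.10 to -0.08, whereas in KO mice they run from -0.03 to 0.01.

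Leaving out 1 library moved the count of 7. It was 4 lower and 3 higher without WT control 2, 4 lower without WT PTX 1 and 3 lower without WT PTX 3. Over all genes tested, those at an unadjusted p under 0.05 numbered 2030 with all libraries and 2370, 1088 and 1361 in these 3 fits, so the last 2 falls were shared with all genes. *Mvk* and *Mvd* were lower at an unadjusted p under 0.05 in all of these fits. Macrophage markers moved with the groups too. Of 9 tested, 7 were lower at an unadjusted p under 0.05 in WT PTX mice, and the list summed to 31.5 to 41.8 FPKM in WT controls and 22.7 to 27.4 FPKM in WT PTX mice. Of 10 sensory neuron markers, 4 were lower and 0 higher, with a median log2 fold change of -0.01 and sums of 4485 to 5496 FPKM in WT controls and 4147 to 4673 FPKM in WT PTX mice. Markers of myelinating Schwann cells had a median log2 fold change of -0.10, with 0 of 10 past that threshold. Skeletal muscle markers summed to 56.8 to 636 FPKM in WT controls and 52.5 to 237 FPKM in WT PTX mice, and the sums of these, of red cell and of adipocyte markers overlapped between the 2 groups. In bulk DRG, fewer cells of a type and less RNA per cell cannot be told apart, and the part of cell makeup was not tested.

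The comparison of KO with WT mice without PTX addressed the genotype without the drug. The strain name in the paper gives a mixed origin. Loss of the receptor and other DNA carried with the allele therefore cannot be told apart. The comparison shares the 3 WT control libraries with the preceding one, so the 2 sets of differences are not independent. With edgeR 0 members passed the adjusted threshold (lowest adjusted p = 0.657, 0.00663% of all genes called). At an unadjusted p under 0.05, 8 members were lower and 0 higher, against 3.58% of all genes lower and 3.96% higher. The median log2 fold change was -0.05, with 19 of 30 below 0. It rested on single libraries, at 0.002 without WT control 2 and -0.09 without WT control 1.

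*Fdps* was at 39.9, 39.2 and 46.1 FPKM in KO controls, with a log2 fold change of -0.30 ± 0.10 (SE). *Mvk* was at 16.8, 16.9 and 18.6 FPKM (-0.23 ± 0.08), and *Mvd* at 21.9, 25.4 and 25.5 FPKM (-0.31 ± 0.11). All 3 lay below the WT controls without overlap, although *Mvd* of KO control 3 was at 25.5 FPKM beside 25.7 FPKM in WT control 3.

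*Acat2* was at 64.4, 60.9 and 69.3 FPKM in KO controls (-0.21 ± 0.08, SE) and *Fdft1* at 69.2, 69.0 and 77.4 FPKM (-0.16 ± 0.06), both again without overlap. In all, 5 members were lower without overlap, against 4.73% of all genes. *Pmvk*, at -0.21 ± 0.08, and *Ebp*, at -0.26 ± 0.10, overlapped between groups. *Hsd17b7*, a ketosteroid reductase of the pathway, had the lowest estimate, -0.47 ± 0.21, and the widest spread. It was at 8.49, 17.2 and 11.9 FPKM in WT controls and 8.08, 10.1 and 8.83 FPKM in KO controls. *Hsd17b7* lies on the chromosome of *Gpr37l1* (chr1:169949535-169969241). *Insig2* and *Lbr* lie on it too, and were at 0.15 ± 0.08 and 0.03 ± 0.18. The part of DNA carried with the allele was not tested.

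The count of 8 moved with single libraries. Without KO control 1 it was 0 lower and 1 higher (*Stard4*), without KO control 2 it was 3 lower (*Mvd*, *Fdps* and *Hsd17b7*), and without WT control 1 it was 5 lower. Over all genes tested, those at an unadjusted p under 0.05 fell likewise, from 1138 to 558, 720 and 886. *Hsd17b7* was at -0.14 without WT control 2, where it was no longer among the lower members, and at -0.69 without WT control 1. With the GC and length trend taken out, 6 were lower, with *Hsd17b7* at -0.55 ± 0.18 (SE) and *Mvk* at -0.13 ± 0.06. In the fit of these groups alone, 4 were lower. Of all genes tested, 1063 and 671 were at an unadjusted p under 0.05 in these 2 fits. Of the macrophage markers, 4 of 9 were lower at an unadjusted p under 0.05, with a list sum of 28.2 to 32.2 FPKM in KO controls, and 2 of 10 sensory neuron markers were lower, and the part of these cells was not tested.

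In KO mice, 2 PTX libraries were compared with 3 control libraries. With edgeR 0 members passed the adjusted threshold (lowest adjusted p = 0.999, 0.00663% of all genes called). At an unadjusted p under 0.05, 1 member was lower and 0 higher, against 2.57% of all genes lower and 1.75% higher. The member was *Stard4*, at 12.6, 16.2 and 19.7 FPKM in KO controls and 13.3 and 11.4 FPKM in KO PTX mice, with a log2 fold change of -0.40 ± 0.16 (SE). The groups overlapped, and KO control 3 was the highest of the 11 libraries. Without KO control 1 the lower count was 2, *Ebp* and *Stard4*. Without KO control 3 it was 0 and *Fdps* was higher, and without KO control 2 or without KO PTX 3 it was 0 as well. The log2 fold change of *Stard4* ran from -0.60 without KO PTX 2 to -0.23 without KO control 3 and -0.22 without KO PTX 3, and was -0.05 with the libraries blocked by the numbers of their titles. Over all genes tested, those at an unadjusted p under 0.05 numbered 652 with all libraries. They numbered 484, 469, 768 and 616 without KO control 1, KO control 3, KO control 2 and KO PTX 3.

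The mevalonate enzymes with lower values in WT PTX mice lay near 0 in this comparison. *Mvk* was at 17.3 and 17.8 FPKM in KO PTX mice, with a log2 fold change of 0.02 ± 0.09 (SE) and a 95% interval from -0.19 to 0.23. *Mvd* was at 24.1 and 24.5 FPKM (0.02 ± 0.13) and *Fdps* at 46.0 and 41.6 FPKM (0.08 ± 0.11). Lower without overlap were 4 members, *Insig1*, *Npc1*, *Abcg1* and *Mylip*, against 10.4% of all genes. *Mylip* had the lowest estimate of these, -0.21 ± 0.12, from 3.40, 3.43 and 3.39 FPKM in KO controls to 3.17 and 2.72 FPKM. The 2 KO PTX libraries also carried more of the spinal cord markers. The list sum was 13.6 to 29.5 FPKM against 6.43 to 11.7 FPKM in KO controls. Skeletal muscle markers were lower in sum, at 118 to 147 against 163 to 669 FPKM. So were adipocyte markers, at 5.11 to 5.61 against 7.37 to 15.2 FPKM. Markers of myelinating Schwann cells had a median log2 fold change of -0.20, with 1 of 10 lower at an unadjusted p under 0.05. Sums of the remaining marker lists overlapped, and the part of cell makeup was not tested. Over the 30 members, the log2 fold changes for PTX in WT and in KO mice, which share no library, had the same sign in 14 and correlated at r = -0.23 and rho = -0.18 across genes, which are not independent replicates.

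KO and WT mice after PTX gave 0 members lower and 0 higher at an unadjusted p under 0.05 with edgeR, against 1.74% and 1.81% of all genes, and 0 past the adjusted threshold (0.0133% of all genes called). DESeq2 gave 0 past its adjusted threshold and 1, *Stard4*, at an unadjusted p under 0.05, and limma gave 0 and 0. *Stard4* was at 14.2, 17.4 and 15.5 FPKM in WT PTX mice, each above both KO PTX mice, with a log2 fold change of -0.36 ± 0.16 (SE) and a 95% interval from -0.72 to 0.01. *Idi1*, *Cyp51*, *Hsd17b7* and *Ebp* were the other members lower without overlap, against 9.58% of all genes. *Mvk* was the 1 member higher without overlap, against 10.7% of all genes, with a log2 fold change of 0.17 ± 0.09.

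The difference of the PTX effect between genotypes was tested as an interaction in the same fit. With edgeR 0 members passed the adjusted threshold (lowest adjusted p = 0.724, 0.00663% of all genes called). At an unadjusted p under 0.05, 4 members were above 0 and 1 below, against 3.12% and 3.18% of all genes. The 4 were mevalonate enzymes whose difference between PTX and control was more positive in KO than in WT mice. They were *Mvk* at 0.40 ± 0.12 (SE), *Mvd* at 0.44 ± 0.16, *Fdps* at 0.35 ± 0.14 and *Pmvk* at 0.28 ± 0.12. The 1 below 0 was *Stard4* at -0.54 ± 0.22. This interaction uses the same WT controls as the preceding comparisons, and over all genes tested its median went from -0.17 in the GC-poorest quintile to 0.14 in the GC-richest quintile. With the GC and length trend taken out, 2 members were above 0, *Mvk* at 0.24 ± 0.10 and *Fdps* at 0.23 ± 0.10, and 0 below. Without WT PTX 3, 1 was above 0, *Mvk*, without KO PTX 3, 2 were, *Acat2* and *Mvk*, and without KO control 1 or KO control 2, *Mvk* and *Mvd* were. *Stard4* was no longer below 0 at that p without WT control 1, WT control 3, WT PTX 2, KO control 2, KO control 3 or KO PTX 3. Of all genes tested, 951 were at an unadjusted p under 0.05 in the main fit and 750 with the trend taken out. Without WT PTX 3, KO PTX 3, KO control 1 and KO control 2 they numbered 965, 507, 613 and 838. With the libraries blocked by the numbers of their titles, all 5 members were lost and *Acat2* alone was above 0. Over all genes tested, those at an unadjusted p under 0.05 fell from 951 to 458.

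Of 34 other genes of cholesterol handling, 31 were tested. With edgeR 0 of these passed the adjusted threshold in any comparison, and DESeq2 and limma called 0 as well. At an unadjusted p under 0.05, 5 were lower and 0 higher for PTX in WT mice and 1 was lower and 0 higher for KO in controls. Of 10 genes of fatty acid synthesis, which the related factor SREBP1 controls, 1 was lower in each, *Fasn*. *Fasn*, fatty acid synthase, had the smallest p of the 2 lists for PTX in WT mice, at 30.1, 35.7 and 25.6 FPKM in WT controls and 25.0, 25.5 and 20.5 FPKM after PTX (-0.37 ± 0.11, SE). *Gramd1a*, a carrier of cholesterol from the plasma membrane, came next at -0.26 ± 0.09.

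For KO in controls, *Fasn* was at -0.27 ± 0.11 (SE) and *Npc2*, the lysosomal partner of *Npc1*, at -0.17 ± 0.07. For PTX in KO mice the smallest p-values belonged to *Rnf139*, a sterol-regulated ubiquitin ligase, at -0.20 ± 0.09, and *Soat1*, which esterifies cholesterol for storage, at -0.21 ± 0.10. Both also came first for KO against WT after PTX, at -0.16 ± 0.09 and -0.15 ± 0.10. In the interaction *Fasn* was at 0.44 ± 0.17 and *Soat1* at -0.30 ± 0.13.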

How the data were processed

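Poly(A) RNA of mouse DRGs was sequenced from strand-specific libraries in 4 groups, taken with replicate numbers from the labels. Per the labels and the submitters' processing notes, the tools were cutadapt, FastQC, HISAT2 and StringTie on mm10, and versions are not given in the sources used here. The authors deposited 1 table of 36670 genes with FPKM, scaled for transcript length and library size, and with estimated counts, deposited without normalization. Counts were rounded to whole numbers, and totals ran from 52735648 to 80348732. Intervals of fold changes rest on the spread between libraries.

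Changes were tested with edgeR 4.0.16 (R 4.3.3; TMM, quasi-likelihood test) on all 11 libraries with labelled sex as a covariate, over the genes whose mean FPKM reached 0.5. Benjamini-Hochberg adjustment was made over these genes with a threshold of 0.05. Standard errors are the log2 fold change over the square root of its F statistic. Exact permutation of 3 against 3 or 3 against 2 cannot go below p = 0.1, so single genes were not permuted. Alternatives were DESeq2 1.42.0, limma 3.58.1, other scalings, filters and covariates, and each library left out. Promoter windows are RefSeq sequences, and GC content and length are those of the longest coding transcript of GENCODE M21, whose start and end were those of the table for 26 of 30 members.

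The members and gene lists were chosen with earlier results of these data known. Named genes were all members, *Gpr37l1*, *Apoe* as part of a marker sum, and genes of 2 further lists. Of these lists, the genes past the threshold were named, or otherwise the 2 with the smallest p per comparison. Same-numbered KO and WT control libraries deviated together (r from 0.11 to 0.23 over genes in 3 pairs). WT control 1 and WT PTX 2, of unlike numbers, reached r = 0.17, so pairing by number was not settled. The main fit did not pair libraries, and a block by number was an alternative only. Titles and descriptions number the KO PTX libraries differently, and the descriptions were used.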

Additional observations from a re-analysis of the deposited data

Results flagged for a closer look

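*Mvk* was flagged because KO lay below WT without overlap in controls (16.8, 16.9 and 18.6 against 21.7, 21.04 and 18.8 FPKM) and above WT without overlap after PTX (17.3 and 17.8 against 15.9, 17.0 and 14.4 FPKM). The difference between the 2 contrasts was 0.40 on the log2 scale by the interaction term, with an edgeR adjusted p of 0.724, so it did not pass the threshold. Across the alternatives it ran from 0.22 to 0.49 and kept its sign, with adjusted p from 0.33 to 1.00.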

How the results depend on the processing

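Members past the adjusted threshold numbered 0 in all 5 comparisons under every alternative except DESeq2, which called 2, *Mvk* (log2 fold change -0.39) and *Mvd* (-0.42), for PTX in WT mice. The 21 member differences at an unadjusted p under 0.05 kept their sign in all 478 values under 23 alternatives. They were picked at that p from the same libraries that the alternatives reused, so a kept sign is no independent check. Several genes count in more than 1 comparison, and *Stard4* for PTX in KO shrank to -0.05.

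Counts over all genes moved more. In the order PTX in WT, KO in controls, PTX in KO, KO after PTX and interaction, edgeR called 1, 1, 1, 2 and 1 genes and DESeq2 309, 42, 28, 9 and 12. For PTX in WT the count was 2 without the filter on low values and 0 without the sex covariate or with limma on log2(FPKM + 1) or log2(FPKM + 0.1). With only the groups compared, the counts were 5, 4 and 5 for PTX in WT, PTX in KO and KO after PTX. Leaving out 1 library gave 0 to 30, 1 to 4, 1 to 7, 2 to 7 and 1 to 6 genes in that order, and without KO control 3 the members' median for PTX in KO was 0.03. Why the tools differ was not tested.

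The replicate block by number left 1, 1, 1, 2 and 1 genes and 0 members called, and with it 7, 8, 1, 1 and 1 members were lower at an unadjusted p under 0.05. Of all genes tested, 1946, 1060, 603, 535 and 983 were at that p in either direction. For PTX in WT, 5 of the 7 members were shared, with *Dhcr7* and *Insig1* in place of *Fdft1* and *Ebp*. In the interaction *Pmvk* was lost, with 3 above 0. Whether equal numbers pair the libraries was not settled, with r from -0.16 to 0.04 for WT control with WT PTX. With the title numbers as a replicate block beside sex, the counts were 0, 1, 2, 3 and 2, 1 member, *Acat2*, was above 0 in the interaction at an unadjusted p under 0.05, the 5 of the other numbering were lost, and so was *Stard4* for PTX in KO. With a replicate block and the GC and length trend taken out together, 0 members were called.

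With 2 or 3 libraries a group, the widest interval of a member for a single contrast ran from -0.69 to 0.36 (*Hsd17b7*, KO after PTX). Differences inside such an interval could be missed at this spread. Replicate 3 and female sex cannot be told apart.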
